A study of Mus musculus with 18 samples.

Results

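The miR-130 and miR-301 family was followed across mouse small RNA libraries from wildtype adrenal glands (AG, n = 3), from tumors of R26 IGF2BP1 mice (TI, n = 7) and from tumors of R26 IGF2BP1/MYCN mice (TIM, n = 8). Its members here were chosen by name and are 5 of the 1966 mature miRNAs in the table, namely mmu-miR-130a-3p, mmu-miR-130b-3p, mmu-miR-130b-5p, mmu-miR-301a-3p and mmu-miR-301b-3p, written here without the species prefix. AG carried the genotype label CRE -. Of the TI tumors, 6 were labelled IGF2BP1 +/+, CRE + and 1 was labelled IGF2BP1 +/-, CRE +, and all 8 TIM tumors were labelled IMP1/MYCN, CRE +, where IMP1 is another name of IGF2BP1. According to the study, the human transgenes sat at the Rosa26 locus behind a stop cassette, and iCre under Dbh control opened it in adrenal glands and peripheral nerves on a C57Bl6/N background. Dbh encodes dopamine beta-hydroxylase, an enzyme of noradrenaline synthesis, and the adrenal gland also holds cortex cells that do not use it. The IGF2BP1 transgene lacked its own 3' untranslated region. Among the tumors, 1 of TI and 2 of TIM were labelled as adrenal gland tumors and 1 of TIM as a tumor of the spine. The ages of the mice are not in the labels used here. The study reports a shorter median survival for IGF2BP1/MYCN than for homozygous IGF2BP1 mice, so TIM and TI may differ in age. Small RNA reads do not measure the transgenes.

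In background, a miRNA guides an Argonaute protein to mRNAs that pair with its seed, the bases from position 2 to 8, and lowers their translation and stability. The hairpin precursor can give a mature strand from each arm, named 5p and 3p, and the strand kept in Argonaute is the one that acts. The 3p strands of the family share their seed and are therefore predicted to bind the same mRNA sites. The family is best known from vascular cells and pulmonary hypertension, and its members have been studied in several cancers. The strand miR-130b-5p is a member by hairpin only and has another seed.

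The sequences of 4 of the 5 members were matched in RefSeq with GRCm38.p6 coordinates, and they are shown because they define who could share targets. Capitals mark the seed, bases 2 to 8 from the 5' end.
miR-130a-3p: cAGUGCAAuguuaaaagggcau
miR-130b-3p: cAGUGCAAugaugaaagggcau
miR-301a-3p: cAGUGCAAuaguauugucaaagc
miR-130b-5p: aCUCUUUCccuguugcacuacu
The seed AGUGCAA was found in 7 of the 1679 mature miRNAs of that sequence table. Aligned from the 5' end, miR-130a-3p differed from miR-130b-3p by U11A and A13G only, so that 20 of 22 bases were the same. How the authors' counting treated reads that match both is not given in the sources used here. The first 9 bases of miR-301a-3p were those of miR-130a-3p.

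The hairpins lay on 3 chromosomes. That of miR-130a was at chr2:84741115-84741178 on the minus strand, outside any other gene in the tables used. The miR-301a hairpin, at chr11:87113004-87113089 on the plus strand, lay in an intron of Ska2, a gene of the spindle and kinetochore associated complex. Hairpins of miR-130b (chr16:17124061-17124142) and miR-301b (chr16:17124400-17124496) lay 257 bases apart on the minus strand, both in introns of 2610318N02Rik. Coordinates are those of GRCm38.p6, and intron status was read by gene name from GENCODE vM39 on GRCm39, where 0 of the 6 Ska2 and 0 of the 17 2610318N02Rik transcripts that span a hairpin have an exon there. The hairpin of miR-130b is printed because both of its strands are members, with miR-130b-5p and then miR-130b-3p in capitals.
Mir130b: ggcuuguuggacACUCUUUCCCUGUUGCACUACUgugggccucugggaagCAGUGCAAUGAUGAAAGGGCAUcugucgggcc

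Values are CPM, reads scaled to a common library total after multiplication by its TMM factor, a scaling that assumes most miRNAs alike. Libraries held 21644743 to 23332704 reads in AG, 11802837 to 21268124 in TI and 11641696 to 23435621 in TIM, and 3 reads amounted to between 0.101 and 0.272 CPM. A single miRNA, miR-148a-3p, took 4.19 to 6.94% of the reads in AG, 2.29 to 61.9% in TI and 6.53 to 44.2% in TIM, and the TMM factors reached from 0.700 in TI to 1.85 in TIM. TI 5 stood apart with 2.29%, against 30.1 to 61.9% in the other TI libraries. The columns give the group but not the mouse, so the library numbers are only names in column order, and p-values measure the spread between libraries. The study reports more tumors than mice for IGF2BP1/MYCN, so some TIM libraries may share a mouse. The tests treat each library as independent. In whole tissue, fewer cells of a type and less RNA per cell cannot be told apart. Of the tissue markers, the neuronal miR-124-3p and miR-9-5p rose in both tumor types (log2 fold changes 4.86 and 3.82 in TI, 4.93 and 4.16 in TIM, adjusted p at most 8.5e-05 from limma), while miR-375-3p (-1.75 in TI and -2.27 in TIM) and miR-7a-5p (-0.09 and 0.39) did not pass. Of 2 endothelial markers, both strands of miR-126a, 2 fell in each tumor type (29.3% of all miRNAs were called lower in TI and 25.9% in TIM), with a summed level of 38529 to 46092 CPM in AG, 1704 to 6736 CPM in TI and 2428 to 8943 CPM in TIM.

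miR-301a-3p and miR-130b-3p rose in both tumor types against AG, and miR-301b-3p rose in TIM. The difference between the tumor types did not pass for any member, so a call in TIM without one in TI does not show that the types differ. Both comparisons with AG share the 3 AG libraries. Over the 5 members, 2 passed in TI against AG, both higher, beside 26.4% of the 726 miRNAs tested that were called higher there. In TIM against AG 3 members passed, all higher, beside 25.5% called higher. In TIM against TI 0 of 5 passed in limma, where 1 had an unadjusted p under 0.05 and 5.23% of all miRNAs were called. There, edgeR and DESeq2 on the recovered reads also called 0 members, with 2 at an unadjusted p under 0.05 in each. The median log2 fold change of the members was 0.78 in TI and 1.59 in TIM against AG, and 0.18 between TIM and TI, beside -0.01, 0.18 and 0.06 over all miRNAs tested. With 5 members these medians against AG are the values of miR-301b-3p in TI and miR-130b-5p in TIM, which did not pass there.

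**Figure D1:**
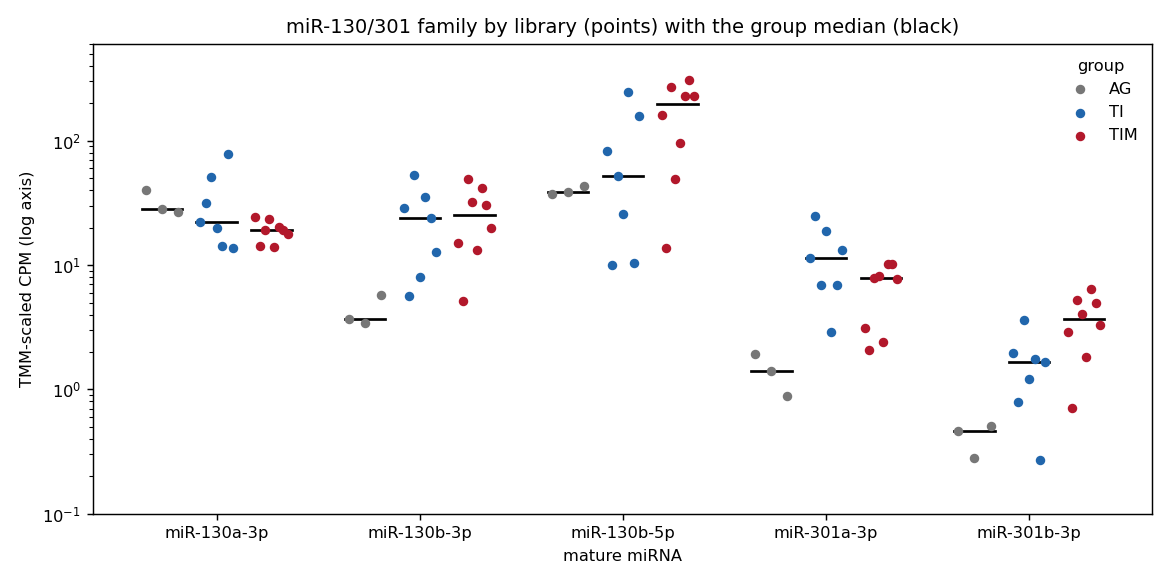
Level of each member in each library, in CPM on a log axis. Points are libraries, coloured by group (AG n = 3, TI n = 7, TIM n = 8), and black lines are group medians. All TI and TIM points of miR-301a-3p lie above the 3 AG points, and the points of miR-130a-3p in TIM lie below those of AG.

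miR-301a-3p, the strand made from the Ska2 intron, lay above the normal gland in every tumor library. Its level was 1.94, 1.399 and 0.88 CPM in the 3 AG libraries. The 7 TI libraries ran from 2.88 to 25.0 CPM with a median of 11.3 CPM. All 7 TI libraries thus lay above all of AG, as for 22% of all miRNAs, with TI 2 highest and TI 5 lowest. The log2 fold change, here and below on the log2(CPM + 1) scale, which understates changes of low miRNAs, was 2.24 (standard error 0.54, adjusted p = 0.0022 from limma), and the mean went from 1.41 ± 0.53 CPM (SD, n = 3) to 12.1 ± 7.67 CPM (SD, n = 7), a ratio of 8.63. Without TI 5 the log2 fold change was 2.49 (adjusted p = 0.00039 from limma).

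In TIM the level of miR-301a-3p ran from 2.09 to 10.3 CPM with a median of 7.83 CPM. Here too all 8 tumors lay above AG, as for 21.1% of all miRNAs, although TIM 2 came close to AG 1. The log2 fold change was 1.49 (standard error 0.53, adjusted p = 0.027 from limma) with a mean of 6.49 ± 3.42 CPM (SD, n = 8) in TIM. Without AG 1, AG 2 and AG 3 in turn, which leaves 2 AG libraries, the log2 fold change was 1.65, 1.504 and 1.33 and the adjusted p in limma 0.055, 0.070 and 0.105. With a pseudocount of 5 the adjusted p was 0.068. Between TIM and TI the log2 difference was -0.74, with a 95% interval of -1.60 to 0.11 (adjusted p = 0.29 from limma).

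The other strand of the same hairpin, miR-301a-5p, was the more abundant of the pair in every library.
miR-301a-5p: gCUCUGACuuuauugcacuacu
It was read at 8.37 to 8.88 CPM in AG, 23.2 to 109 CPM in TI and 7.81 to 97.0 CPM in TIM. This strand also rose, by 2.20 on the log2 scale in TI (adjusted p = 0.0075 from limma). In TIM it rose by 2.25 (adjusted p = 0.0063 from limma). All 7 TI libraries lay above all of AG, as for 22% of all miRNAs, and so did 7 of 8 TIM libraries. The exception was TIM 2, which lay below all of AG. Reads of the 5p strand outnumbered those of the 3p strand 4.31 to 10.1 times in AG, 1.79 to 8.33 times in TI and 3.74 to 14.6 times in TIM.

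miR-130b-3p, from the chromosome 16 pair of hairpins, rose in both tumor types. AG held 3.65, 3.45 and 5.78 CPM, or 74 to 125 reads. The TI libraries ranged from 5.66 CPM in TI 2 to 53.4 CPM in TI 3, with a median of 23.96 CPM. All but TI 2, which sat within the AG range, were above AG. This gave a log2 fold change of 1.94 (standard error 0.65, adjusted p = 0.017 from limma), and the ratio of means 5.59. It was 1.73 with an adjusted p of 0.0503 in limma on CPM without the TMM factor, 1.79 (adjusted p = 0.028) without TI 5, and the adjusted p was 0.063 and 0.061 without AG 1 and AG 2.

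In TIM miR-130b-3p ranged from 5.15 CPM in TIM 2 to 49.0 CPM in TIM 3, with a median of 25.2 CPM. Again 1 library, TIM 2, overlapped AG and the other 7 lay above it. limma gave a log2 fold change of 2.11 (standard error 0.64, adjusted p = 0.011 from limma) and the ratio of means 6.02. Without AG 1 the adjusted p from limma was 0.0501. The means of 24.02 ± 17.0 CPM (SD, n = 7) for TI and of 25.9 ± 15.1 CPM (SD, n = 8) for TIM differed by 0.18 on the log2 scale, with a 95% interval of -0.84 to 1.20 (adjusted p = 0.87 from limma).

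miR-301b-3p was the scarcest member, at 0.46, 0.28 and 0.51 CPM in AG, which was 6 to 11 reads. In TI it stood between 0.27 and 3.61 CPM with a median of 1.66 CPM, with 6 libraries above all of AG and TI 6, with 3 reads, below. The log2 fold change of 0.78 (standard error 0.41) did not pass (adjusted p = 0.11 from limma). On the recovered reads it was 1.92 in edgeR (adjusted p = 0.030) and 1.97 in DESeq2 (adjusted p = 0.010).

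In TIM miR-301b-3p lay between 0.71 CPM in TIM 2 and 6.37 CPM in TIM 6, with a median of 3.67 CPM. All 8 lay above AG, as for 21.1% of all miRNAs. The change on the log2 scale was 1.60 (standard error 0.40, adjusted p = 0.0030 from limma), with a mean of 0.417 ± 0.121 CPM (SD, n = 3) for AG and one of 3.67 ± 1.88 CPM (SD, n = 8) for TIM, a ratio of 8.81. Against TI the log2 difference was 0.81 (95% interval 0.18 to 1.45, unadjusted p = 0.015, adjusted p = 0.10 from limma). The adjusted p from limma was 0.028 on CPM without the TMM factor, where the difference was 1.20, and 0.034 without TIM 2, where it was 1.003.

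The other strand of that hairpin followed the same order of groups.
miR-301b-5p: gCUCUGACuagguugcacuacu
Its sequence differs from miR-301a-5p by U10A, U11G and A12G and has the same bases 2 to 8. miR-301b-5p was at 0.42 to 0.70 CPM in AG, 0.61 to 11.03 CPM in TI and 1.08 to 45.2 CPM in TIM. All 8 TIM libraries were above AG, as for 21.1% of all miRNAs. There the log2 fold change was 3.13 (standard error 0.78, adjusted p = 0.0030 from limma), and the ratio of means was 34.2. In TI the log2 fold change was 1.44 (adjusted p = 0.13 from limma), against 2.85 in both edgeR (adjusted p = 0.030) and DESeq2 (adjusted p = 0.0038). Between TIM and TI it was 1.70 (95% interval 0.44 to 2.95, adjusted p = 0.087 from limma), and without TIM 2 it was 2.09 (adjusted p = 0.022). It was 2.14 on CPM without the TMM factor (adjusted p = 0.030 from limma) and 2.28 in DESeq2 (adjusted p = 0.0092), but 2.25 with an adjusted p of 0.076 in edgeR.

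miR-130b-5p, the strand opposite miR-130b-3p, had the widest spread of the 5 members within each tumor type, with a coefficient of variation of 106% in TI and 63.3% in TIM. AG held 37.1, 39.0 and 43.6 CPM, a narrow range. The TI libraries reached from 10.1 CPM in TI 2 to 247 CPM in TI 5, with a median of 51.9 CPM. Thus 4 TI libraries lay above all of AG and the other 3 below, and the log2 fold change was 0.24 (95% interval -1.79 to 2.26, adjusted p = 0.86 from limma). Its sign was set by single libraries, at -0.16 without TI 5 and -0.052 without TI 7. The TIM libraries reached from 13.7 CPM in TIM 2 to 308 CPM in TIM 7, with a median of 196 CPM.

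Of the TIM libraries, 7 exceeded all of AG in miR-130b-5p and TIM 2 fell below. The log2 fold change of 1.59 (95% interval -0.40 to 3.58) did not pass (adjusted p = 0.17 from limma). It was 2.03 without TIM 2 (adjusted p = 0.048 from limma) and 2.09 in DESeq2 (adjusted p = 0.027). The difference between TIM and TI was 1.36 (95% interval -0.16 to 2.88, adjusted p = 0.28 from limma).

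miR-130a-3p, the most abundant 3p member in AG, did not pass the test in either tumor type. AG held 40.2, 28.3 and 26.6 CPM. The TI libraries held 13.8 to 78.5 CPM with a median of 22.3 CPM, with 2 libraries above and 4 below all of AG. The log2 fold change was -0.18 (95% interval -1.10 to 0.74, adjusted p = 0.75 from limma). It turned to 0.33 with library totals that excluded miR-148a-3p and carried no TMM factor, to 0.11 in edgeR and to 0.17 in DESeq2. Without the TMM factor alone it was -0.38.

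The TIM libraries held 14.1 to 24.3 CPM of miR-130a-3p, with a median of 19.1 CPM. These 8 values lay below all of AG, as for 22% of all miRNAs, but the log2 fold change of -0.71 (95% interval -1.61 to 0.20) did not pass (adjusted p = 0.19 from limma). With only TIM and AG in the model the adjusted p from limma was 0.049. The separation depended on the scaling, since 4 of 8 libraries lay below AG on CPM without the TMM factor. With totals that also excluded miR-148a-3p, 4 lay below and 1 above. In turn the log2 fold changes were -0.37 and -0.13. The endothelial markers fell in TIM (median log2 fold change -3.07) and also in TI (-3.49), where the log2 fold change of miR-130a-3p was -0.18. Their part in the values of miR-130a-3p was not tested. The opposite strand, miR-130a-5p, stayed at or under 2.46 CPM in every library and did not pass in any comparison (log2 fold change -0.22 in TI and 0.26 in TIM).

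**Figure D2:**
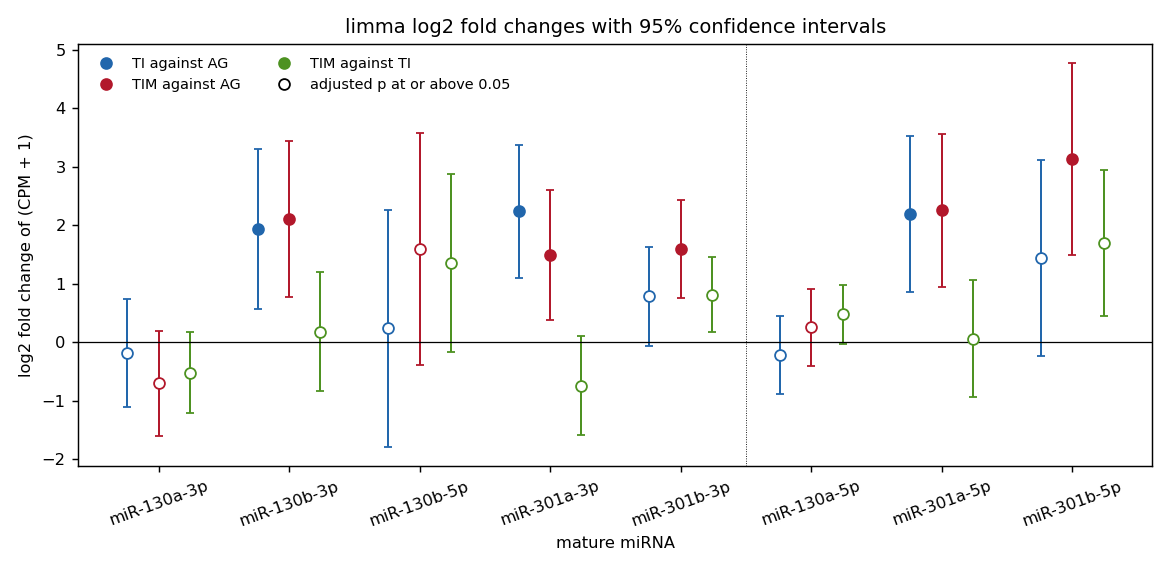
Log2 fold changes of the members and of their hairpin partners on the log2(CPM + 1) scale, with 95% intervals from limma, for TI against AG, TIM against AG and TIM against TI. Intervals of miR-130b-3p, miR-301a-3p and miR-301a-5p lie above 0 in both tumor types against AG, and those of miR-130a-3p cross 0 in all 3 comparisons.

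TIM 2 held the lowest level among the TIM libraries of miR-130b-3p, miR-130b-5p, miR-301a-3p and miR-301b-3p. The 2 highest TIM values of miR-130b-3p and of miR-301b-3p came from TIM 3 and TIM 6, which were also the shallowest TIM libraries, with 12133274 and 11641696 reads, and which sat at the upper end of the TMM factors. What part depth had in these values was not tested. TIM 2 was not shallow, with 22654966 reads.

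The makeup of the shared-seed pool differed between normal gland and tumors. Summed over miR-130a-3p, miR-130b-3p, miR-301a-3p and miR-301b-3p, AG held 37.8 ± 7.32 CPM (SD, n = 3). The same sum was 70.8 ± 29.5 CPM (SD, n = 7) for TI, whereas TIM held 55.1 ± 21.6 CPM (SD, n = 8). miR-130a-3p made up 78.8 to 86.9% of this sum in AG, 26.1 to 71.6% in TI and 23.6 to 64.3% in TIM, so neither tumor range met that of AG. The mean share of miR-130b-3p was 11.8% in AG, 33.6% in TI and 43.4% in TIM. miR-301a-3p had a mean share of 3.66% in AG, 20.8% in TI and 11.3% in TIM, and miR-301b-3p one of 1.11%, 2.50% and 6.29%. These shares are given as a description, without a test.

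**Figure D3:**
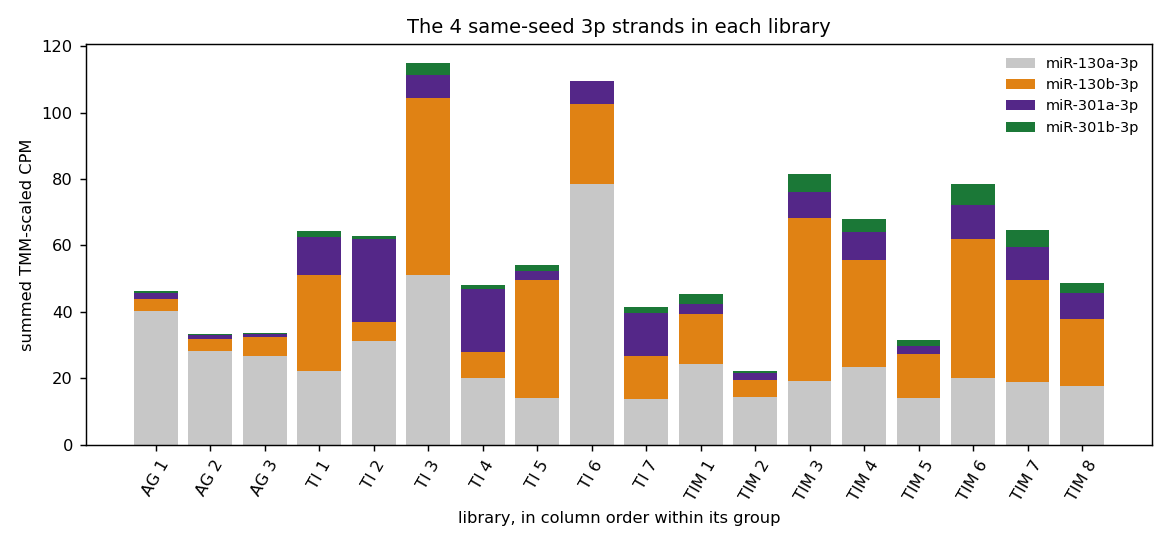
Summed level in CPM of the 4 shared-seed 3p strands in each library, stacked by miRNA. miR-130a-3p fills most of each AG bar (78.8 to 86.9%) and 23.6 to 71.6% of each tumor bar.

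Within a library, 6 ratios between strands or paralogs were compared between the groups on the log2(CPM + 1) scale by an exact permutation test (two-sided, 18 tests adjusted together). The same test was added, after the data were seen, on ratios of reads with no pseudocount, which do not depend on the scaling of the library. miR-130a-3p had 11.01, 8.20 and 4.6 times the reads of miR-130b-3p in the AG libraries. It had 0.400 to 5.54 times in TI and 0.392 to 2.78 times in TIM, so that 8 of 8 TIM libraries and 6 of 7 TI libraries fell below all of AG. The log2 difference of this ratio was -2.82 for TIM (exact p = 0.012, adjusted p = 0.073) and -2.12 for TI (exact p = 0.033, adjusted p = 0.12). The exact p for TIM was the smallest that 165 arrangements allow when the smaller tail is doubled, as here. With no pseudocount the differences were -3.08 (exact p = 0.012, adjusted p = 0.081) and -2.35 (exact p = 0.033, adjusted p = 0.094). Of the 18 tests, 0 passed after adjustment and 7 had an unadjusted p under 0.05, both with and without the pseudocount. Against AG the smallest exact p possible in this form was 0.017 for TI and 0.012 for TIM. A ratio at that floor could not pass the adjustment on its own, so 0 passing does not show that the ratios were alike. With the p from the absolute difference 3 of the 18 passed (exact adjusted p = 0.036 each).

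**Figure D4:**
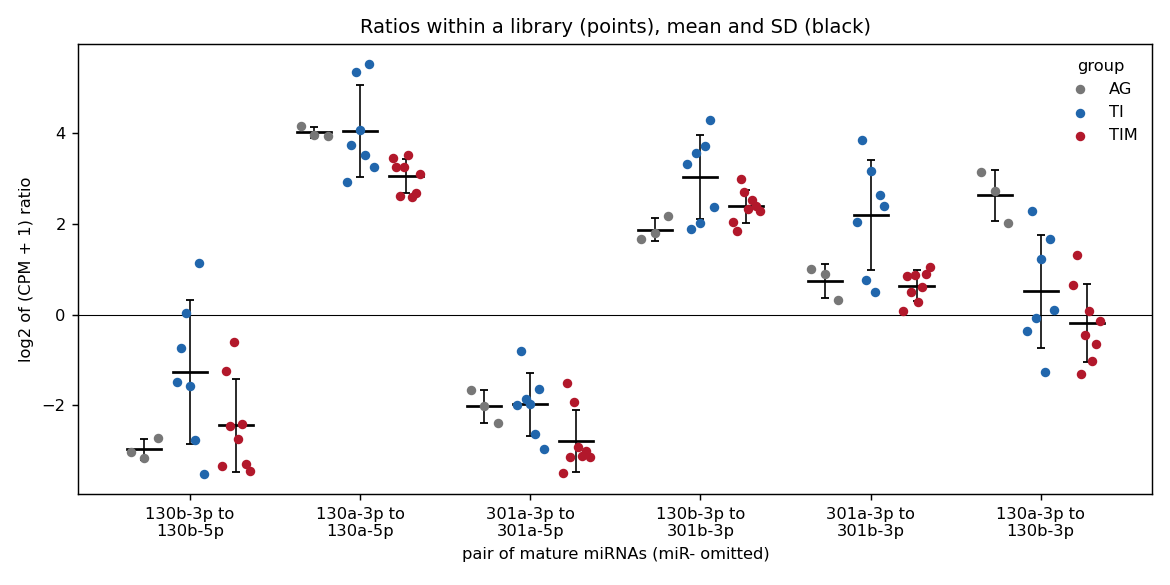
Log2 ratios of CPM + 1 within each library for the 6 pairs of strands or paralogs. Points are libraries by group (AG n = 3, TI n = 7, TIM n = 8). In the ratio of miR-130a-3p to miR-130b-3p all 8 TIM libraries and 6 of 7 TI libraries lie below AG.

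Strands of 1 hairpin did not keep a fixed ratio. In AG the miR-130b hairpin gave 7.54 to 11.3 times more reads of the 5p than of the 3p strand. In TI this ranged from 0.432 to 12.3 times and in TIM from 1.54 to 11.5 times, and the log2 difference of the 3p to 5p ratio was 1.70 in TI (exact p = 0.13, adjusted p = 0.18) and 0.52 in TIM (exact p = 0.52, adjusted p = 0.63). For the miR-130a hairpin the 3p strand led, by 31.1 to 33.8 times in AG, 10.9 to 193 times in TI and 8.15 to 45.0 times in TIM. With no pseudocount 7 TIM libraries lay below all of AG in that ratio and 1 lay above, with a log2 difference of -1.09 (exact p = 0.073, adjusted p = 0.15). The pseudocount of 1 put all 8 below AG, with a difference of -0.96 (exact p = 0.012, adjusted p = 0.073), so that separation rested on it. The 5p strand had as few as 3 reads in a library, which limits this ratio.

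The paralogs miR-301a-3p and miR-301b-3p had differences of opposite sign between the tumor types, neither of which passed on its own. Their log2 ratio differed by -1.56 in the direction TIM minus TI (exact p = 0.0081, adjusted p = 0.073), and by -2.14 with no pseudocount (exact p = 0.0075, adjusted p = 0.081). miR-301a-3p had 1.64 to 31.5 times the reads of miR-301b-3p in TI and 1.07 to 2.95 times in TIM, so the ranges overlapped. The neighbours miR-130b-3p and miR-301b-3p had a ratio of 7.90 to 12.3 in AG, 6.65 to 88.0 in TI and 5.18 to 9.29 in TIM. Between TIM and AG the log2 difference was -0.59 with no pseudocount (exact p = 0.036, adjusted p = 0.094). It turned to 0.52 with the pseudocount of 1 (exact p = 0.048, adjusted p = 0.12), since miR-301b-3p was under 1 CPM in AG, so no direction is read from this ratio.

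Across the 18 libraries, deviations from the group means on the log2(CPM + 1) scale were correlated among members as a description, over libraries that share their scaling. miR-130b-3p and miR-301b-3p, which lie 257 bases apart at the hairpin level, had r = 0.77, and miR-130b-5p and miR-301b-3p had r = 0.72. miR-301a-3p had r = 0.74 with its own 5p strand but r = -0.05 with miR-130b-3p. miR-130a-3p and miR-130b-5p had r = -0.42. Among all miRNAs averaging 10 CPM or more, of which there were 399 or 400 besides the member itself, the nearest to miR-301a-3p were miR-18a-5p (r = 0.90) and miR-17-5p (r = 0.89). The nearest to miR-130b-5p were miR-301b-5p (r = 0.88) and miR-484 (r = 0.86), and to miR-301b-3p they were miR-301b-5p (r = 0.77) and miR-130b-3p (r = 0.77). miR-130b-3p was nearest to miR-301b-5p (r = 0.65) and miR-5099 (r = 0.64), and miR-130a-3p to miR-3535 (r = 0.76) and miR-3068-3p (r = 0.76).

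Other miRNAs with the same or a shifted seed were also read. miR-130c and miR-721 had no reads in any library. Of the 3 tested hairpin partners 1 rose in TI and 2 in TIM, beside 26.4% and 25.5% of all miRNAs called higher. The miR-148/152 miRNAs carry bases 1 to 7 of the family, CAGUGCA, as their own bases 2 to 8, and the miR-19 miRNAs carry bases 3 to 8, GUGCAA, as their bases 2 to 7.
miR-148a-3p: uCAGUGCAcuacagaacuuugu
miR-152-3p: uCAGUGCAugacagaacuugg
miR-19b-3p: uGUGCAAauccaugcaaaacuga
Of these 5 miRNAs, 1 rose and 2 fell in TI, where 26.4% of all miRNAs were called higher and 29.3% lower. In TIM 0 rose and 2 fell, beside 25.5% of all miRNAs called higher and 25.9% lower. miR-148a-3p rose in TI by 2.73 on the log2 scale (adjusted p = 0.013 from limma), and its log2 fold change in TIM was 1.36 (adjusted p = 0.19). miR-152-3p fell by 3.48 in TI (adjusted p = 9.7e-05 from limma) and by 3.21 in TIM (adjusted p = 0.00017), from 3192 to 4067 CPM in AG to at most 991 CPM in any tumor. miR-148b-3p fell by 0.53 in TI (adjusted p = 0.034 from limma) and by 0.57 in TIM (adjusted p = 0.025), but these calls depended on the setting. In TI miR-148b-3p passed in 5 of 10 alternatives and in 5 of 10 fits with a library left out. In TIM it passed in 8 of 10 alternatives and in 9 of 11 such fits. miR-19a-3p and miR-19b-3p did not pass in either tumor type. The summed level of these 5 was 46743 to 79089 CPM in AG, far above the 37.8 CPM of the shared-seed 3p strands. In AG miR-148a-3p alone held 42330.5 to 74849.6 CPM, while miR-19a-3p, with a mean of 8.99 CPM, lay below that 37.8 CPM.

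Of the remaining marker lists, leukocyte markers fell in 3 of 5 in TI and 4 of 5 in TIM (summed level 427 to 620 CPM in AG, 53.5 to 348 CPM in TI and 69.5 to 215 CPM in TIM). Stromal and smooth muscle markers fell in 4 of 5 in each tumor type in limma, beside 29.3% of all miRNAs called lower in TI and 25.9% in TIM. For this list edgeR called 2 in TI and 4 in TIM and DESeq2 called 3 and 5. The summed level of the list was 124324 to 210988 CPM in AG, 16134 to 171667 CPM in TI and 16240 to 101974 CPM in TIM. No erythroid or epithelial marker passed against AG in limma, with 0 at an unadjusted p under 0.05 and 0 called in edgeR, while DESeq2 called 1 epithelial marker in TI. Between TIM and TI limma and edgeR called no marker of any list, and limma gave 2 epithelial markers an unadjusted p under 0.05, where DESeq2 called 3. Their part in the values of the family was not tested.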

How the data were processed

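Small RNA reads of 18 libraries were aligned by the authors to mm10, and the deposited signal is CPM per mature miRNA on library totals scaled with TMM in edgeR. The submitters' processing notes name cutadapt 2.8, Bowtie2 2.3.5.1, featureCounts 2.0.0 and edgeR 3.40, without roles. The authors' fold changes, p-values and FDR were not used. Values were whole multiples of 1 read in 100% of cases (within 0.02 reads), which gave the recovered reads.

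The 726 of 1966 miRNAs that reached 1 CPM in 3 libraries or more were tested on log2(CPM + 1) with limma 3.58.1 (lmFit and trended eBayes, R 4.3.3), all groups in one model, with Benjamini-Hochberg adjustment over all tested and a threshold of 0.05. Alternatives were pseudocounts of 0.1 and 5, other filters, scalings and group sets, edgeR 4.0.16 (quasi-likelihood) and DESeq2 1.42.0 on recovered reads, and each library left out. Ratios were compared by exact permutation in Python 3.11.15 (the smaller tail doubled). The fits were tested on simulated data. Named were the members, their hairpin partners, same-seed and shifted-seed miRNAs, cell type markers and, per member, the 2 miRNAs most like it. The members and lists were chosen with earlier results of these data known. No pair of libraries was identical. Sequences are from RefSeq (GRCm38.p6). The level of 3 reads covers counting error only.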

Additional observations from a re-analysis of the deposited data

Results flagged for a closer look

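Dixon's ratio of the gap to the range was computed for 56 values. These were the highest and the lowest value of each set of TI or TIM values of the members, their partners and their ratios. None (0) exceeded the critical value, where chance would give about 1.4. AG, with 3 libraries, was not tested.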

How the results depend on the processing

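No paired analysis was run, since the groups carried different genotype labels. The numbers in the column names also do not match those of the sample titles. The count of members that passed in TI against AG, 2, was 1 without the TMM factor and 1 to 2 with a library left out (1 without AG 1 or AG 2). It was 3 in edgeR and in DESeq2. In TIM against AG it was 3, and 1 (without AG 1) to 4 with a library left out. It was 4 in DESeq2, all 4 higher, and 4 with only these groups in the model, 3 of them higher and miR-130a-3p lower. With a pseudocount of 5 or at 10 CPM or more it was 2. In TIM against TI it was 0, and 1 without the TMM factor or without TIM 2. Over all miRNAs 405 passed in TI against AG (294 to 431 with a library left out), 373 in TIM against AG (227, without AG 1, to 383) and 38 in TIM against TI (24 to 68, with 24 without TI 1, TI 2 or TI 6, 25 without TIM 6, 62 without TI 4 and 68 without TI 7). The last was 21 with a pseudocount of 5, 17 at 10 CPM or more, 155 without the TMM factor, 24 with only these groups, 2 in edgeR and 123 in DESeq2. The share called higher there was 65.8%, and 89.0% without the TMM factor, 48.1% with median ratio scaling and 45.5% in DESeq2. With totals that excluded miR-148a-3p, which also carried no TMM factor, it was 59.7% instead of 47.4% in TI against AG. In TIM against AG it was 66.4% instead of 49.6%. Without the TMM factor alone these shares were 42.7% and 59.4%. Leaving out both miR-148a-3p and the TMM factor moved the median of all miRNAs by 0.32 and 0.35 from the main result. Leaving out only the TMM factor moved it by -0.13 and 0.23, and by 0.42 between TIM and TI. For the ratios, 0 passed, and 3 with the p from the absolute difference, each with an exact adjusted p of 0.036. The direction reversed for miR-130a-3p in TI against AG (0.33 with miR-148a-3p excluded, 0.11 in edgeR, 0.17 in DESeq2) and in TIM against TI (0.013 without the TMM factor), and for miR-130a-5p in TI against AG (0.052 with miR-148a-3p excluded), none of which had passed. With a library left out, miR-130b-5p in TI against AG ran from -0.16 to 0.59, and in TIM against TI miR-130b-3p ran from -0.083 to 0.45 and miR-301a-5p from -0.097 to 0.40. Among the log2 ratios, miR-130b-3p to miR-301b-3p in TIM against AG reversed to -0.35 with a pseudocount of 0.1 and to -0.59 with none, an alternative chosen after seeing the data. A pseudocount of 5 turned miR-130a-3p to miR-130a-5p (-0.084) and miR-301a-3p to miR-301a-5p (-0.54) in TI against AG, and miR-301a-3p to miR-301b-3p in TIM against AG (0.14). With a library left out these 3 ran from -0.21 to 0.22, from -0.15 to 0.22 and from -0.32 to 0.028. The cause was not tested. miR-301b-3p has no value at 10 CPM or more, since it failed that filter.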
